A study of Homo sapiens with 4 samples.

Results

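Transcripts of 3 cytokine genes, IL32, CCL2 and CXCL10, were examined in RWP-1, a human cell line established from pancreatic cancer. They are 3 of the 14884 genes with a named probe set on the arrays. They were chosen on their difference between cells given rGAL1 and control cells, so their values on this contrast are a description and carry no test. Each gene had 1 probe set whose annotation gave a single symbol: 16815355 for IL32 (Entrez 9235), 16833204 for CCL2 (Entrez 6347) and 16977052 for CXCL10 (Entrez 3627). The groups were untreated RWP-1 cells (Ctrl, n = 2 arrays) and RWP-1 cells treated with rGAL1 (n = 2 arrays), read here as recombinant galectin-1, a lectin that binds galactose-bearing glycans. All arrays came from this single line, and the labels give no dose, time or vehicle and do not say whether the 2 arrays of each condition were separate cultures. The spread between arrays may therefore be technical. The array called rGAL1 2 carries that name in its title and source name, while its treatment field gives no treatment; it was kept with rGAL1.

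IL-32 is a cytokine of leukocytes and epithelial cells that is largely retained inside the cell and can induce TNF, IL-6 and CXCL8 in responding cells. CCL2, or MCP-1, attracts monocytes through the receptor CCR2, and tumour cells and stromal cells of the pancreas are among its known sources. CXCL10, or IP-10, attracts T cells and NK cells through CXCR3 and is a classical product of interferon signalling. Transcription of all 3 genes can be driven by NF-kB. In the CXCL10 promoter NF-kB acts beside an interferon-stimulated response element, or ISRE, to which STAT and IRF proteins bind.

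Promoter windows in RefSeq (GRCh38.p14) were available for IL32 and CXCL10 and are shown with their matches to elements of these routes. No window was available for CCL2, so its promoter was not searched. Each run is the 250 bases before a transcription start, 5′ to 3′ on the strand of the gene, with matches in capitals. The search covered both strands for the degenerate NF-kB consensus and for the ISRE core GAAANNGAAA. The CXCL10 window lies at chr4:76023498-76023747 on the minus strand, and that of the upstream IL32 start at chr16:3065153-3065402 on the plus strand.
CXCL10: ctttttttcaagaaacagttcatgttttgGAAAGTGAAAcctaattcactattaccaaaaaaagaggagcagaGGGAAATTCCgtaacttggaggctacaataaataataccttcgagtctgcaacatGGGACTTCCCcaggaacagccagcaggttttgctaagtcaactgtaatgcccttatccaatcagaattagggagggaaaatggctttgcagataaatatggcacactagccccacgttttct
IL32: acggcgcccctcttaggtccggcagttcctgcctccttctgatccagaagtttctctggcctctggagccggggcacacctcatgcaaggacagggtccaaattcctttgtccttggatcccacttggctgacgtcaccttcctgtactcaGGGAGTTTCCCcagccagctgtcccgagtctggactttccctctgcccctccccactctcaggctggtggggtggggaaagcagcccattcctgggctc

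The CXCL10 window held 1 ISRE core, GAAAGTGAAA, from base -221 to -212 before the start, and 2 NF-kB matches, GGGAAATTCC from -177 to -168 and GGGACTTCCC from -122 to -113. The IL32 window held GGGAGTTTCC from -99 to -90 on the plus strand, overlapped by a second NF-kB match shifted by 1 base and read on the other strand. The window of the second, downstream IL32 start held neither motif. Among 34788 distinct windows of this length, 5.21% held the NF-kB consensus and 3.02% the ISRE core. The NF-kB consensus and the ISRE core stood together in 41 windows, or 0.118%, of which the CXCL10 window was 1. A match is a stretch of letters and not a measured site.

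IL32 measured lower, and CCL2 and CXCL10 higher, in the rGAL1 arrays, by 1.27-fold to 1.52-fold. Expression is given as the deposited log2 value of the probe set after RMA, a method that corrects background, normalizes arrays to a common scale and summarises the probes of a set. The values of IL32 were 7.39 and 7.23 in Ctrl and 6.59 and 6.82 in rGAL1. The rGAL1 arrays were both lower than either Ctrl array, and the nearest pair across the groups was 0.41 log2 units apart. The mean level was 7.31 ± 0.12 in Ctrl and 6.71 ± 0.16 in rGAL1 (log2 units, SD, n = 2). The difference was -0.61 log2 units (SE 0.13), or 1.52-fold lower. Arrays within a group differed by 0.17 in Ctrl and 0.23 in rGAL1.

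CCL2 values were 3.19 and 3.38 in Ctrl and 3.60 and 3.88 in rGAL1. Both rGAL1 arrays lay above both Ctrl arrays, with 0.21 log2 units between the nearest arrays of the groups, a gap smaller than the 0.29 between the rGAL1 arrays themselves. The mean level was 3.29 ± 0.14 in Ctrl and 3.74 ± 0.20 in rGAL1 (log2 units, SD, n = 2). The rGAL1 mean was higher by 0.45 (SE 0.15), or 1.37-fold. CCL2 was the member that depended most on the array with conflicting labels: its difference was 0.31 without rGAL1 2 and 0.11 when that array was counted as a control.

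CXCL10 values were 2.99 and 2.97 in Ctrl and 3.36 and 3.29 in rGAL1. The arrays of a group lay close together, 0.018 apart in Ctrl and 0.069 in rGAL1, and the nearest arrays of different groups were 0.30 apart. The mean level was 2.98 ± 0.013 in Ctrl and 3.32 ± 0.049 in rGAL1 (log2 units, SD, n = 2). The rGAL1 mean was higher by 0.35 (SE 0.10), or 1.27-fold. Leaving out 1 array at a time gave 0.31 to 0.38 for CXCL10 and -0.72 to -0.49 for IL32.

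**Figure D1:**
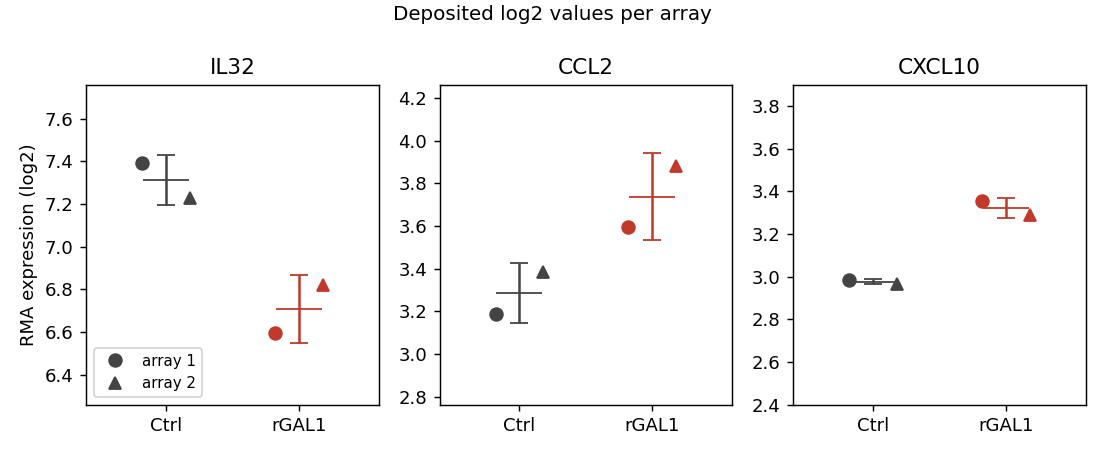
Log2 RMA expression (vertical axes, each spanning the same range of log2 units) of IL32, CCL2 and CXCL10 on the 4 arrays, with circles for arrays numbered 1, triangles for arrays numbered 2, and horizontal marks with bars for the mean ± SD of 2 arrays. IL32 is lower in rGAL1 (6.71 against 7.31), and CCL2 (3.74 against 3.29) and CXCL10 (3.32 against 2.98) are higher, with no overlap of the groups.

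Groups that do not overlap were common in this design. Of all named genes, 20.2% had both rGAL1 arrays above both Ctrl arrays and 17.0% had both below, 37.2% in all. As the 3 members were chosen on this contrast, nothing is read from their own separation. In the limma fit across all 53617 probe sets, 0 (0%) passed a Benjamini-Hochberg adjusted p under 0.05, and the smallest value was 0.919. Without adjustment, 1275 probe sets (2.38%) were higher in rGAL1 and 1532 (2.86%) lower at p under 0.05.

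The members stood on opposite sides of the middle of the array. IL32 lay above the median of all probe sets of its array, by 2.67 and 2.52 log2 units in Ctrl and by 1.90 and 2.11 in rGAL1. CCL2 lay below it, by values of -1.53 and -1.33 in Ctrl and -1.10 and -0.83 in rGAL1. CXCL10 also lay below it, at -1.74 and -1.75 in Ctrl and -1.34 and -1.42 in rGAL1. The array medians themselves ranged from 4.69 to 4.72. The median of the probe sets' means, 4.70, is used here as a dim level. The table has no detection call, and 1 of the 3 members, IL32, was above that level.

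Dim probe sets scattered more between arrays than those at the level of IL32. Among 5228 probe sets within 0.5 log2 units of IL32's mean, 2 arrays of a group differed by a median of 0.091, and the 90th percentile of that gap was 0.26. The corresponding gap was 0.19 at the level of CCL2 (90th percentile 0.52, 11234 probe sets) and 0.20 at that of CXCL10 (90th percentile 0.54, 9156 probe sets). The 90th percentile of the absolute difference between group means was 0.20 at the level of IL32, 0.36 at that of CCL2 and 0.38 at that of CXCL10. The difference of CXCL10 lay below its value, and those of IL32 and CCL2, chosen on this contrast, lay above theirs.

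**Figure D2:**
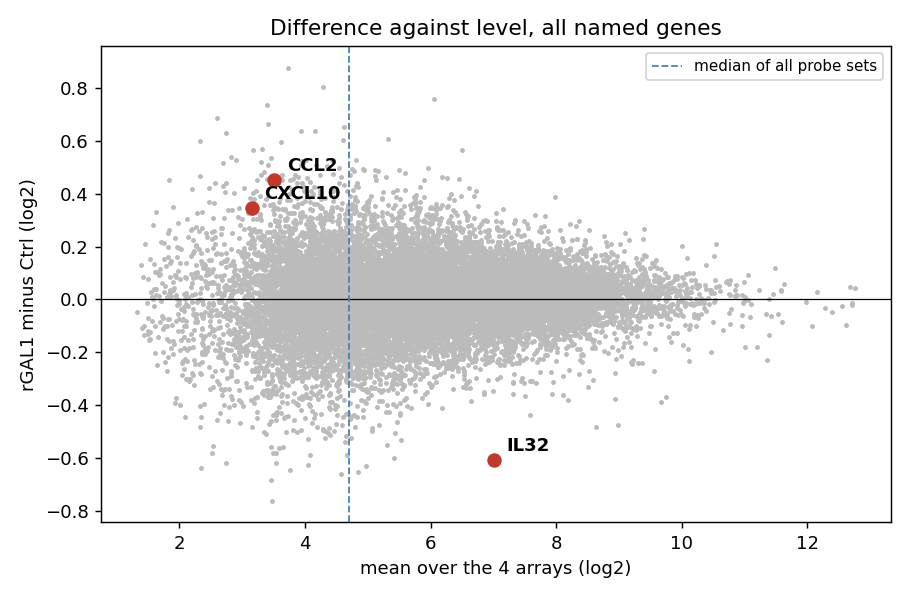
Difference between rGAL1 and Ctrl means (log2, vertical axis) against the mean over the 4 arrays (log2, horizontal axis) for 14884 named genes in grey, with the 3 cytokine genes in red and the median of all probe sets, 4.70, as a dashed line. The points spread more widely at dim levels, where CCL2 (0.45) and CXCL10 (0.35) lie, than at the level of IL32 (-0.61).

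The chemokine genes beside CCL2 did not all go the same way. In the RefSeq gene order of GRCh38.p14, CCL2 is followed by CCL7, CCL11 and CCL8, which encode further attractants of monocytes and eosinophils. All of these were below the dim level on every array. CCL7 measured 2.65 and 3.13 in Ctrl and 3.54 and 3.36 in rGAL1, a difference of 0.56 (SE 0.19) that ranged from 0.33 without Ctrl 1 to 0.80 without Ctrl 2. CCL11, or eotaxin, measured 3.39 and 3.36 in Ctrl and 3.61 and 3.74 in rGAL1, a difference of 0.30 (SE 0.11). CCL8 differed in the other direction, with 3.45 and 3.14 in Ctrl and 3.08 and 2.97 in rGAL1 (-0.27, SE 0.14, and -0.12 without Ctrl 1). The groups did not overlap for any of these genes, as for 32.4% of all named genes below the dim level, and none passed in limma.

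In the same RefSeq gene order, which follows start coordinates, CXCL10 comes between CXCL9 and CXCL11, which encode the other CXCR3 ligands. ART3 comes between CXCL9 and CXCL10 in that order, and where it ends was not examined. CXCL9 measured 3.20 and 3.43 in Ctrl and 3.39 and 3.25 in rGAL1, overlapping groups with a difference of 0.0014 (SE 0.13). CXCL11 measured 3.85 and 3.95 in Ctrl and 4.09 and 4.01 in rGAL1, without overlap, a difference of 0.15 (SE 0.11) that was 0.099 without Ctrl 1. ART3 differed by -0.20 (SE 0.11), and by -0.11 without Ctrl 2. The 3 CXCR3 ligands thus had differences of 0.35, 0.15 and 0.0014. Near IL32, 1 of the 6 nearest genes was named on the array, MMP25, a membrane-bound matrix protease, with a difference of -0.11 (SE 0.10, and -0.054 without rGAL1 1).

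**Figure D3:**
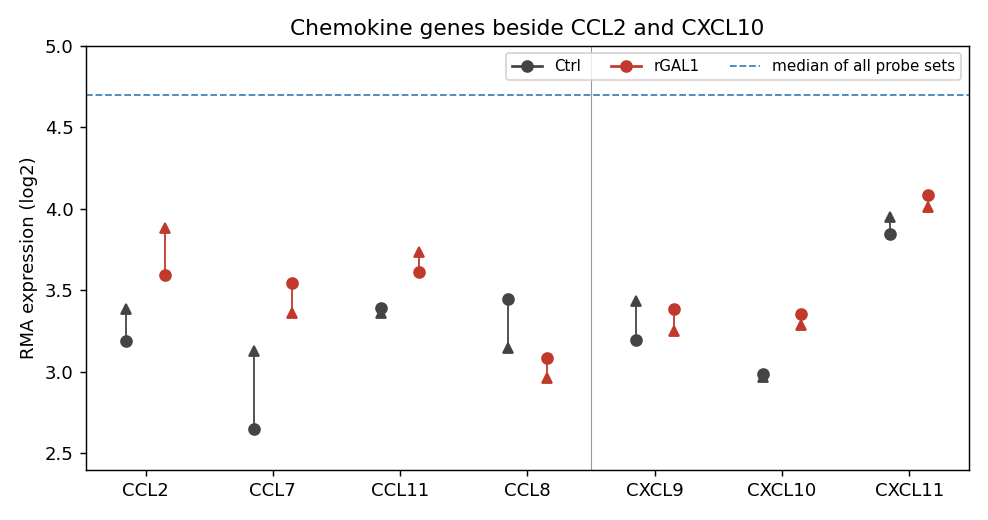
Log2 RMA expression (vertical axis) of CCL2 and the chemokine genes after it (left) and of CXCL9, CXCL10 and CXCL11 (right), with circles and triangles for the arrays numbered 1 and 2, grey for Ctrl and red for rGAL1, and the median of all probe sets as a dashed line at 4.70. CCL7 and CCL11 are higher in rGAL1 like CCL2, CCL8 is lower, and the arrays of CXCL9 overlap.

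Across the remaining chemokine ligands, higher and lower means were nearly even. Of 37 measured ligands, 18 were higher and 19 lower in rGAL1. The groups were separated upward in 8 and downward in 5, or 35.1% against 37.2% of all named genes. The median difference was -0.0073 (0.0066 with array medians subtracted), beside 0.0056 for all named genes, and 0 ligands passed in limma. CXCL8, the neutrophil attractant that IL-32 can induce, measured 8.00 and 8.11 in Ctrl and 8.16 and 8.18 in rGAL1, a difference of 0.11 (SE 0.10) that was 0.054 without Ctrl 1. CXCL3, another neutrophil attractant, differed by -0.34 (SE 0.14, and -0.22 without Ctrl 2). CX3CL1, a membrane-tethered chemokine, differed by 0.23 (SE 0.11), and CCL27, a skin-homing chemokine, by -0.21 (SE 0.12, and -0.12 without rGAL1 1).

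Receptors of the members were dim or varied as much between arrays as between groups. CCR2, the receptor of CCL2, measured 3.42 and 4.05 in Ctrl and 3.72 and 3.81 in rGAL1, a difference of 0.026 (95% interval -0.57 to 0.62). CXCR3, the receptor of CXCL10, differed by 0.074 (95% interval -0.27 to 0.42), and ACKR2, a scavenger of CC chemokines, by 0.045 (95% interval -0.26 to 0.35). Of 20 measured chemokine receptors, 11 were higher and 9 lower, with a median of 0.030 (-0.055 to 0.065 with 1 array left out). Without rGAL1 2, 7 were higher. CCRL2, an atypical receptor that presents chemerin, differed by -0.27 (SE 0.11) and was below the dim level on the rGAL1 arrays (4.64 and 4.53). CCR7, which guides cells to lymph nodes, differed by -0.15 (SE 0.11, and -0.077 without Ctrl 1).

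Other interleukins and cytokines were even, with 11 of 22 measured genes higher, 11 lower and a median of -0.011. Their groups were separated in 22.7%, against 37.2% of all named genes. TNF, which can both induce and be induced by IL-32, differed by -0.078 (95% interval -0.43 to 0.27), and IL18, an inducer of IL32 in leukocytes, by -0.083 (95% interval -0.66 to 0.49). IL11, a cytokine of the IL-6 family, measured 6.16 and 6.35 in Ctrl and 6.50 and 6.47 in rGAL1 (0.23, SE 0.11, and 0.14 without Ctrl 1). OSM, of the same family, differed by 0.19 (SE 0.10) and was below the dim level on the Ctrl arrays (4.66 and 4.58). IL17C, an epithelial cytokine, differed by -0.14 (SE 0.11, and -0.075 without rGAL1 1). Of 9 measured cytokine receptors and IL-32 partners, 7 were higher with all arrays and 4 without rGAL1 2. PRTN3, a neutrophil protease that binds IL-32, differed by 0.056 (SE 0.11), and by -0.018 without rGAL1 2. IL6R differed by 0.11 (SE 0.11) and IL17RA by 0.075 (SE 0.10), and without rGAL1 1 by 0.052 and 0.028.

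Among genes of the sensing, NF-kB and interferon routes, more had higher than lower means in rGAL1, and none passed in limma. IL32, which NF-kB can also drive, was the member that measured lower. The lists were chosen with earlier results of these data known, and a link to the members was not tested. Of all named genes, 51.7% had a higher mean in rGAL1. Of 20 measured receptors that sense RNA, DNA and bacterial products, 14 were higher and 6 lower, with 8 separated upward and 3 downward (55.0%, against 39.1% of named genes above the dim level and 32.4% of those below it). Their median difference was 0.13, and 0.067 to 0.17 with 1 array left out. TLR3, which detects double-stranded RNA in endosomes, measured 4.85 and 4.52 in Ctrl and 5.17 and 5.18 in rGAL1, a difference of 0.49 (SE 0.15, and 0.33 without Ctrl 2). IFIH1, a cytosolic sensor of double-stranded RNA, measured 6.38 and 6.49 in Ctrl and 6.82 and 6.67 in rGAL1 (0.32, SE 0.11). NOD1, a sensor of bacterial peptidoglycan, differed by 0.30 (SE 0.12).

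Of 18 measured NF-kB subunits, kinases and inhibitors, 13 were higher and 5 lower, with 8 separated upward and 2 downward (55.6%, against 39.1% of named genes above the dim level, as all 18 were). The median was 0.043, ranged from 0.019 to 0.069 with 1 array left out, and was -0.012 with rGAL1 2 counted as a control. REL, the c-Rel subunit, measured 7.70 and 7.64 in Ctrl and 7.99 and 7.98 in rGAL1 (0.31, SE 0.099). TRAF1, an adaptor of TNF receptors and an NF-kB target, differed by 0.21 (SE 0.11), and the deubiquitinase CYLD, which restrains NF-kB, by -0.12 (SE 0.099). RELA, the p65 subunit, differed by 0.072 (95% interval -0.19 to 0.33, and 0.037 without Ctrl 1). Of 15 further NF-kB targets, 11 were higher and 4 lower, with 5 separated upward, 3 downward (53.3%) and a median of 0.059. Among these SAA1, an acute phase protein, differed by 0.31 (SE 0.11), the survival gene BCL2L1 by -0.20 (SE 0.10), and the RNase gene ZC3H12A by 0.18 (SE 0.12, and 0.093 without Ctrl 1).

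Of 20 measured genes for interferon receptors, JAK, STAT and IRF proteins, 14 were higher and 6 lower, with 9 separated upward and 3 downward (60.0%, against the same 39.1%, with 18 of the 20 above the dim level). The median was 0.051, and 0.036 to 0.067 with 1 array left out. JAK2, the kinase of the interferon-gamma receptor, measured 5.49 and 5.65 in Ctrl and 6.02 and 5.89 in rGAL1 (0.38, SE 0.12). IRF1, a factor acting on the CXCL10 promoter, differed by 0.17 (SE 0.12, and 0.079 without Ctrl 2). IRF9, the DNA-binding part of the complex that reads the ISRE, differed by -0.25 (SE 0.12), and the inhibitor SOCS3 by -0.24 (SE 0.12); these were -0.14 without Ctrl 2 and -0.13 without Ctrl 1, respectively. Of 12 further interferon targets, 8 were higher and 4 lower, with a median of 0.026 (-0.0060 to 0.11 with 1 array left out). Their groups were separated upward in 3 and downward in 0, or 25.0%. That is below the 39.1% of named genes above the dim level and the 32.4% of those below it. MX2, an antiviral GTPase close to the dim level, measured 4.50 and 4.68 in Ctrl and 4.76 and 4.99 in rGAL1. It differed by 0.28 (SE 0.14, and 0.17 without rGAL1 2). UBE2L6, which conjugates ISG15, differed by 0.19 (SE 0.10), while ISG15 itself differed by 0.00070 (SE 0.11).

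Genes that share the promoter elements, a grouping made after the values were seen, had medians near that of all named genes. The NF-kB consensus lay in a window of 815 other measured genes, with 427 higher, 388 lower and a median of 0.0084. The ISRE core lay in 365, with 211 higher, 154 lower and a median of 0.022. Both lay in 1 window in 19, with 11 higher, 8 lower and a median of 0.0038. IFIH1, at 0.32, was the highest of those 19.

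Among 14 measured proteases that can trim chemokines, 7 were higher and 7 lower, and the groups were separated in 7.14%, against 37.2% of all named genes. MMP1, interstitial collagenase, measured 5.87 and 5.49 in Ctrl and 6.60 and 6.27 in rGAL1, a difference of 0.76 (SE 0.19). DPP4, which shortens CXCL10 at its amino end, differed by -0.017 (95% interval -0.40 to 0.37).

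**Figure D4:**
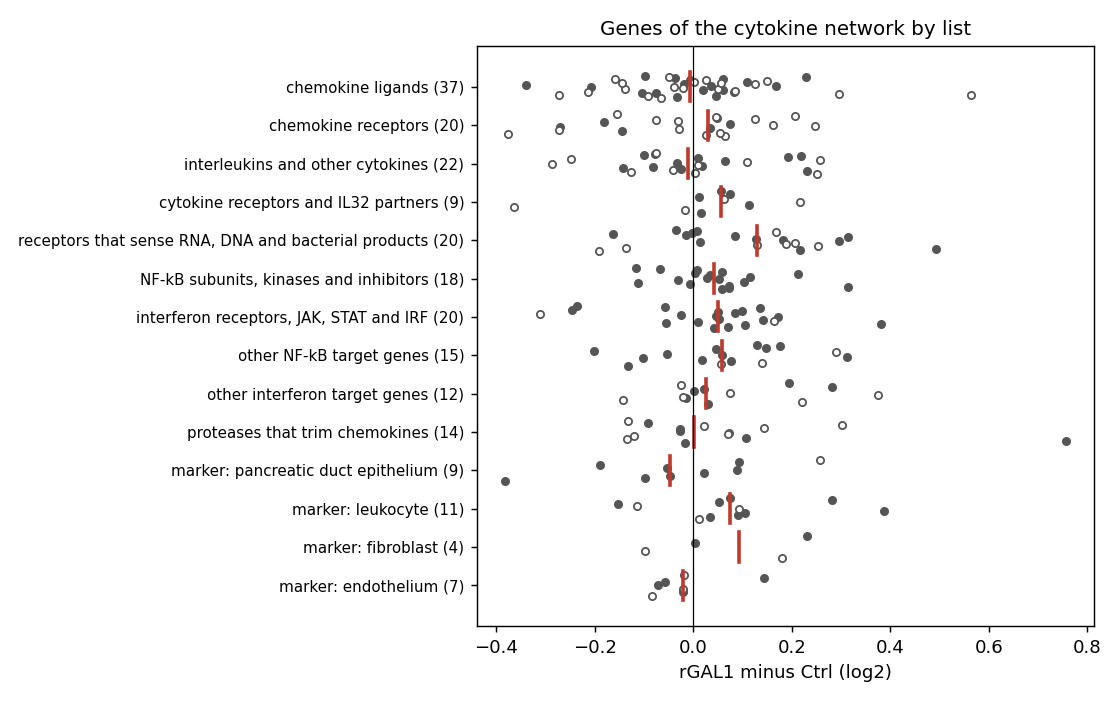
Differences between rGAL1 and Ctrl means (log2, horizontal axis) for the measured genes of 14 lists, with the number of genes in brackets, filled points for genes above the dim level of 4.70, open points for dimmer genes and red bars for list medians. The median is 0.13 for receptors that sense RNA, DNA and bacterial products and lies between -0.047 and 0.092 for the other lists.

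Of 9 measured markers of pancreatic duct epithelium, 8 had a mean above the dim level, as had 10684 of all 14884 named genes. EPCAM ranged from 9.88 to 9.98 over the arrays, KRT19 from 9.39 to 9.45 and KRT7 from 4.76 to 5.37, while SPP1, from 3.98 to 4.49, was below that level on every array. Relative to the array median, the mean over the duct list was 3.33 to 3.38 on the 4 arrays. Markers of other cell types were mixed, with 8 of 11 leukocyte, 4 of 7 endothelial and 2 of 4 fibroblast markers above the dim level. The leukocyte count was close to the share of all named genes above that level. Those below it on every array included DCN (2.89 to 3.16) and LUM (3.22 to 3.39) of fibroblasts, CD2 (4.45 to 4.62) of T cells and PECAM1 (3.84 to 4.54) of endothelium. Those above it on every array included THY1 (5.45 to 5.76), PDPN (4.92 to 5.48), CD8A (5.95 to 6.17), CD68 (7.71 to 8.23), CLDN5 (5.81 to 5.98) and ENG (5.20 to 5.60). All arrays are of the RWP-1 line and the labels name no other cell type, so these markers are not read as a measure of other cells. Of 11 measured leukocyte markers, 9 were higher in rGAL1, with a median difference of 0.076. With 1 array left out, 7 to 8 were higher and the median was 0.034 to 0.087. The mean level over the list, relative to the array median, was 0.53 and 0.51 in Ctrl and 0.62 and 0.60 in rGAL1. CD68, a lysosomal glycoprotein abundant in macrophages, differed by 0.39 (SE 0.12), CD14 by 0.10 (SE 0.11, and 0.055 without rGAL1 2) and NKG7 by -0.15 (SE 0.12, and -0.048 without Ctrl 1). In RNA pooled from many cells, a change in some cells and a change in all of them cannot be told apart. The part of these markers in the differences of the members was not tested. In the duct list 4 markers were higher and 5 lower, with a median of -0.047. The groups were separated upward in 1 and downward in 4 (55.6%, against 39.1% of named genes above the dim level). KRT7 differed by -0.38 (SE 0.17, and -0.16 without rGAL1 1), CLDN4 by -0.19 (SE 0.11, and -0.13 without Ctrl 2) and KRT8 by -0.098 (SE 0.11, and -0.032 without Ctrl 1). EPCAM differed by 0.089 (SE 0.097). SPP1 differed by 0.26 (SE 0.17) and CA2 by 0.092 (SE 0.13), which without rGAL1 1 were 0.040 and -0.0048, and KRT19 by 0.022 (SE 0.099, and -0.0063 without Ctrl 1).

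For each member, the 3 named genes with the most similar pattern over the 4 arrays were found. Likeness was the root mean square distance between log2 values, each gene taken relative to its own mean. CCL2 and CXCL10 were 0.16 apart by this measure, and IL32 was 0.55 from CCL2 and 0.49 from CXCL10. The measure uses the same values on which the members were chosen, so nothing is read from these distances. The genes nearest to IL32 were MIR3689E (0.043), TAL2 (0.070) and RRP7BP (0.077). Those nearest to CCL2 were KRT32 (0.033), ENO4 (0.042) and TSPAN16 (0.043), and those nearest to CXCL10 were NRG1-IT3 (0.0070), KBTBD7 (0.021) and MPPE1 (0.023). Of the genes so found, MIR3689E, KRT32, ENO4, TSPAN16 and NRG1-IT3 had means below the dim level. They are the closest of 14884 genes over only 4 values, and shared regulation was not tested.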

How the data were processed

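Total RNA, 100 ng per sample per the labels' protocols, was labelled with biotin and hybridised to 4 single-channel whole-transcript arrays. The deposited values are log2 expression per probe set. Per the submitters' processing notes the authors used RMA and limma; their versions are not given in the sources consulted. RMA compresses differences of dim probe sets. The table held 53617 probe sets, of which 16098 carried 1 gene symbol, all matched by Entrez ID. The remaining 37519, with no symbol or more than 1, were not assigned to a gene. A gene with several probe sets (779 genes) was represented by the brightest. All probe sets were fitted with limma 3.58.1 in R 4.3.3 (lmFit, eBayes, no block, two-sided, Benjamini-Hochberg over all probe sets, 2 residual and 2.75 prior degrees of freedom). SEs and 95% intervals come from this fit. Whether these SEs hold for dim probe sets, which scattered more between arrays, was not tested. Precision is limited by the small number of arrays.

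The members and the 14 gene lists were chosen with earlier results of these data known. Lists are described by counts and medians, without a set test. Named genes were a set chosen by role and, from each list, up to 3 genes above the dim level with the largest differences among those whose groups do not overlap, plus genes adjoining the members and the 3 nearest in pattern to each; DCN, LUM, CD2, THY1, PDPN, CD8A, CLDN5, ENG, SPP1, CA2 and ISG15 were added after their values were seen. IL6, NFKBIA, TNFAIP3, ITGAV, PTPRC and COL1A1 were not analysed here. Alternatives left out each array, added a replicate block, changed the scaling, the probe set filter, the prior or the group of rGAL1 2.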

Additional observations from a re-analysis of the deposited data

How the results depend on the processing

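Under each alternative run with limma, the number of probe sets at an adjusted p under 0.05 stayed 0, also without 1 array (0 to 0) and with the replicate block. The count at an unadjusted p under 0.05, 2807, was 1641 with only probe sets above the dim level and 1006 with only those of 1 symbol, both of which test fewer probe sets. It was 2406 to 3444 without 1 array. The replicate block left the differences of IL32, CCL2 and CXCL10 at -0.61, 0.45 and 0.35 and gave 2548 probe sets at an unadjusted p under 0.05. Deviations of same-numbered arrays did not correlate (r = -0.048 across probe sets), so the numbers were not taken to pair the arrays.

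With rGAL1 2 counted as a control, CCL2 differed by 0.11, CXCL10 by 0.28 and IL32 by -0.55. Without 1 array, IL32 ranged from -0.72 to -0.49, CCL2 from 0.31 to 0.60 and CXCL10 from 0.31 to 0.38. Fits without 1 array leave a group with a single array, assumed to vary like the other group. Against the median of probe sets with 1 symbol, which are brighter, the Ctrl levels were 1.55 for IL32, -2.48 for CCL2 and -2.79 for CXCL10, in place of 2.60, -1.43 and -1.74. Leaving out a Ctrl array gave 2.52 to 2.67, -1.53 to -1.33 and -1.75 to -1.74 for these levels. The median changed sign under some alternative in 10 of the 14 lists, in 9 of them when 1 array was left out. Of 75 genes named by rule or in the text, 49 moved by over 1.5 times or changed sign without 1 array, and 16 of these changed sign. The count of genes with higher means without rGAL1 2 was an alternative chosen after seeing the data.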
